A study of Mus musculus with 6 samples.

Results

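The LIN28 proteins and a set of other RNA-binding and microRNA-processing proteins are described here in mouse embryonic stem cells and in somatic cells of the fetal testis. The set holds 10 genes given by name: Lin28a, Lin28b, Trim71, L1td1, Igf2bp1, Igf2bp2, Igf2bp3, Dnd1, Dicer1 and Dgcr8. A probe was assigned to a gene when its RefSeq transcript carried that symbol, which gave 13 of 39429 gene probes. Lin28b, Trim71 and Igf2bp2 had a pair of probes and the other members had 1. Each of the 13 probes was well above background on all arrays of at least 1 group, so all 10 genes were among the 19673 genes tested.

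For ESC there were 3 samples of the VR15 line, male embryonic stem cells with a Vasa::RFP transgene. For soma there were 3 samples of gonadal somatic cells from male E13.5 genital ridges on the background MCH x C57BL6/J with the transgene Oct5<delta>PE-GFP. Each sample had its own Agilent 1-colour array, hybridised with RNA labelled from an input of 100 ng. The stem cells are 1 line, and how the somatic cells were parted from germ cells, or whether animals were pooled, is not given in the sources used here. The replicates are called biological. Each p-value below is from limma, which combines the spread among these 3 samples per group with the spread over all genes tested.

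LIN28A and LIN28B bind the precursors of the let-7 microRNAs through a cold shock domain and zinc knuckles. Precursors bound by LIN28A are tailed with uridine and destroyed instead of being cut by DICER. Mature let-7 in turn silences growth and embryonic genes, Lin28 genes and Trim71 among them, so that the proteins and the microRNA hold each other down. In pluripotent cells the proteins are abundant and mature let-7 is scarce, and the balance tips the other way as cells differentiate. The arrays measure messenger RNAs, not mature microRNAs.

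The let-7 sequences are shown because they are what the LIN28 proteins act on and what Dicer1 and Dgcr8 are needed to make. In RefSeq's mouse annotation (GRCm38.p6) the 5′ mature let-7 family sequences were picked by the letters GGUA within the seed, so those letters were fixed by the choice. All 9 distinct sequences so picked, miR-98 included, have the full seed GAGGUAG at bases 2 to 8, given in capitals in these examples.
mmu-let-7a-5p: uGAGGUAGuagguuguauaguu
mmu-let-7g-5p: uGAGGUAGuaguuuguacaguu
mmu-let-7d-5p: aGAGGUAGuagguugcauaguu
The zinc knuckles of LIN28 are known to contact a GGAG stretch near the end of the precursor's loop. Of 12 let-7 family hairpins, 9 hold GGAG between the annotated 5′ and 3′ mature arms and 3 (Mirlet7b, Mirlet7c-2 and Mir98) do not. The examples give that stretch in capitals for Mirlet7g (chr9:106178840-106178927, plus strand) and Mirlet7a-1 (chr13:48538179-48538272, minus strand), and no capitals for Mirlet7b (chr15:85707319-85707403, plus strand), where it is absent.
Mirlet7g: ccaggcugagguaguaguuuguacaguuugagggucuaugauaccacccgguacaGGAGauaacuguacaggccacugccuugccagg
Mirlet7a-1: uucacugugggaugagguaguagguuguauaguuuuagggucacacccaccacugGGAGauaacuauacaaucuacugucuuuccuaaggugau
Mirlet7b: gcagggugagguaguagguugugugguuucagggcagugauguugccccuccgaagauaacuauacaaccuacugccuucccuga

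Lin28a, Lin28b, Trim71, L1td1 and Igf2bp1 were far higher in ESC, by 16.1-fold to 95.5-fold. Dnd1 and Dgcr8 were higher by less than 2-fold, Igf2bp2 and Dicer1 were lower by less than 2-fold, and Igf2bp3 did not pass the test. In all, 9 of the 10 members passed at an adjusted p under 0.05 (limma, Benjamini-Hochberg over all 19673 genes), where 84.9% of all genes tested did, so passing by itself sets the members apart from nothing. Of all genes tested 46.6% were called higher in ESC and 38.3% lower, and the members' counts were 7 and 2. Calls of at least 2-fold higher in ESC were made for 5 members and 24.2% of all genes, and calls of at least 2-fold lower for 0 members and 23.2% of all genes. The median log2 difference, ESC minus soma, was 2.44 over the 10 members and 0.14 over all genes tested. The 2 groups did not overlap for any of the 10 members, 8 higher and 2 lower in ESC, nor for 87.1% of all genes tested (47.7% of all genes higher in ESC and 39.5% lower).

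Signals are given as multiples of the array's 75th percentile over gene probes, so that 1 marks that percentile on every array. A signal is compared only between arrays for the same probe, since probes differ in how well they bind. Lin28a had scaled signals of 19.8, 18.6 and 19.6 on ESC arrays 1 to 3, against 0.373, 0.439 and 0.565 on soma arrays 1 to 3. The stem cell arrays lay close together and far above all soma arrays, where the gene was nonetheless well above background on all 3. The means were 19.3 ± 0.631 in ESC and 0.459 ± 0.0974 in soma (SD, n = 3 each), a 42.7-fold difference (log2 difference 5.42 ± 0.15, SE, adjusted p 8.31e-07). In bulk samples such as these, fewer cells of a type and less RNA per cell cannot be told apart.

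Lin28b, the paralog that is also expressed in many fetal tissues, had 4.97, 4.96 and 4.42 in ESC, against 0.164, 0.235 and 0.184 in soma. The groups were again far apart, with a 24.9-fold higher signal in ESC (4.64 ± 0.14 on the log2 scale, SE, n = 3 per group, limma adjusted p 1.06e-06). Its other probe was much dimmer, at 0.0903, 0.117 and 0.095 in ESC and 0.0068, 0.0265 and 0.00583 in soma. That probe was well above background on all ESC arrays and on 1 soma array. Tested on its own it was also higher in ESC, by 3.30 ± 0.59 on the log2 scale (SE, n = 3 per group, adjusted p 0.00224 in a limma fit of all probes kept).

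Trim71, whose protein (LIN41 in the worm) is an E3 ubiquitin ligase and mRNA repressor and a classical let-7 target, had 9.37, 8.25 and 8.77 in ESC, against 0.106, 0.21 and 0.23 in soma. Soma 1 was the lowest of the soma arrays, and every ESC array was far above all of them. The difference was 50.9-fold (5.67 ± 0.30 on the log2 scale, SE, n = 3 per group, limma adjusted p 8.36e-06). A dimmer Trim71 probe read 0.586, 0.505 and 0.5 in ESC and was not well above background on any soma array. Its fitted log2 difference was 5.27 (adjusted p 2.72e-07 in a limma fit of all probes kept, measured means 0.53 in ESC and 0.0137 in soma). On the processed signal it gives a bound of at least 20.4-fold higher in ESC. Such a bound sets the ESC mean against the dimmest signal that still counted as detected on each soma array.

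L1td1, which encodes an RNA-binding protein derived from the open reading frame of a LINE-1 element and found with LIN28 in stem cells, had the largest difference of the 10. Its scaled signals were 75.4, 68.5 and 72 in ESC, against 0.738, 0.869 and 0.667 in soma. The mean was 72 ± 3.46 in ESC and 0.758 ± 0.103 in soma (SD, n = 3 each), 95.5-fold apart (log2 difference 6.58 ± 0.11, SE, adjusted p 2.09e-07). Of all genes tested 99.4% had a lower log2 difference than L1td1, and for Trim71, Lin28a, Lin28b and Igf2bp1 these shares were 98.8%, 98.7%, 97.9% and 97.0%.

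**Figure D1:**
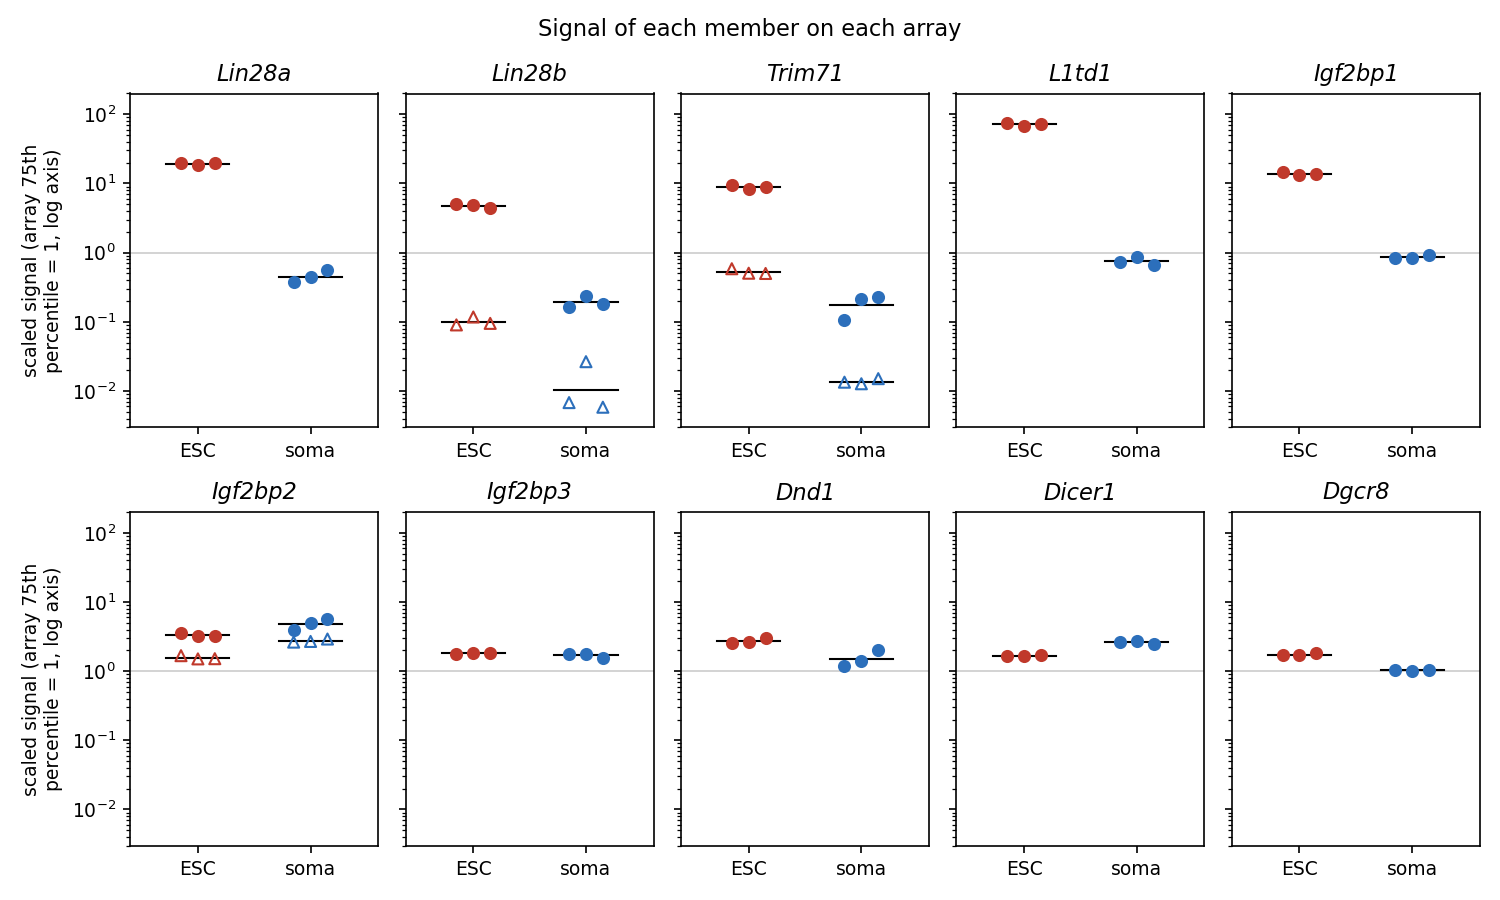
Scaled signal (array 75th percentile = 1, log axis) of every probe of the 10 members on each of 3 ESC arrays (red, left) and 3 soma arrays (blue, right). Filled circles are the brightest probe of a gene, open triangles its other probe, and bars the geometric means. Lin28a, Lin28b, Trim71, L1td1 and Igf2bp1 lie more than 10-fold apart between the groups on the filled circles, and the remaining members less than 2-fold; signals of different probes are not to be set against each other.

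The IGF2BP proteins, which bind, transport and stabilise mRNAs such as those of Igf2 and Actb and are themselves known as let-7 targets, did not share 1 pattern. Igf2bp1 had scaled signals of 14.9, 13.2 and 13.8 in ESC, against 0.848, 0.843 and 0.914 in soma. All ESC arrays were high and the soma arrays nearly equal, with a 16.1-fold difference (4.01 ± 0.07 on the log2 scale, SE, n = 3 per group, limma adjusted p 2.23e-07).

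Igf2bp2 went the other way, with 3.57, 3.22 and 3.18 in ESC, against 3.95, 4.9 and 5.74 in soma. The lowest soma array was only a little above the highest ESC array, and the signal was 1.45-fold lower in ESC (-0.53 ± 0.14 on the log2 scale, SE, n = 3 per group, limma adjusted p 0.0137). Its other probe gave a larger difference in the same direction, with 1.68, 1.5 and 1.52 in ESC and 2.63, 2.69 and 2.91 in soma (-0.81 ± 0.07 on the log2 scale, SE, n = 3 per group, limma adjusted p 7.4e-05 in the limma fit of all probes kept). With arrays scaled to their median instead, the brighter probe stood at -0.34 and no longer passed (adjusted p 0.0542).

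Igf2bp3 had 1.78, 1.82 and 1.81 in ESC, against 1.78, 1.74 and 1.55 in soma. The lowest ESC array and the highest soma array were equal to 3 digits, so the lack of overlap rests on the digits after them. The log2 difference was 0.10 (95% interval -0.07 to 0.27, limma adjusted p 0.22). Its sign turned with the scaling, from -0.13 with spike-in scaling to 0.29 with scaling to the array median, where it passed (adjusted p 0.0141). With the slide as a fixed block it stood at 0.22 and passed as well (adjusted p 0.0239).

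Dnd1 encodes a germ cell RNA-binding protein that acts with NANOS2 and the CCR4-NOT deadenylase, and its loss is known to give testicular teratomas in mice. It read 2.56, 2.66 and 2.98 in ESC, against 1.18, 1.42 and 2 in soma. The soma arrays were spread widely, and soma 3 came nearest to the ESC arrays. The signal was 1.82-fold higher in ESC (0.86 ± 0.20 on the log2 scale, SE, n = 3 per group, limma adjusted p 0.00683). Soma 3 is the array that shared its slide with the ESC arrays, and against it alone the difference was 0.45, with no replicate in soma. Without soma 3 it was 1.07.

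The soma arrays differed in the summed germ cell markers in the same order as in Dnd1. Of 13 germ cell markers 11 were tested, and their summed scaled signal was 16.2 to 17.2 on the ESC arrays and 5.67, 7.44 and 9.92 on soma 1 to 3. None of the 11 was below background on all soma arrays, and Nanos2 was not well above background on any ESC array. Kit read 1.36, 1.43 and 1.3 on soma 1 to 3 and Nanos3 read 1.01, 0.949 and 1.35, so neither followed the order of the sum. Ddx4, the Vasa gene, read 0.853, 0.754 and 0.81 in ESC and 0.485, 0.769 and 1.06 in soma, and Dazl read 0.161, 0.137 and 0.143 in ESC and 0.427, 0.622 and 0.856 in soma. Lin28a, Trim71 and Igf2bp2 were likewise lowest on soma 1 and highest on soma 3, by 1.51-fold, 2.18-fold and 1.45-fold between those arrays. In contrast L1td1, Igf2bp3 and Dicer1 were lowest on soma 3. The 12 pluripotency markers summed to 357 to 384 in ESC and to 8.19, 10.2 and 11.6 on soma 1 to 3. The part of germ cells in the soma signals of the members was not tested.

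**Figure D2:**
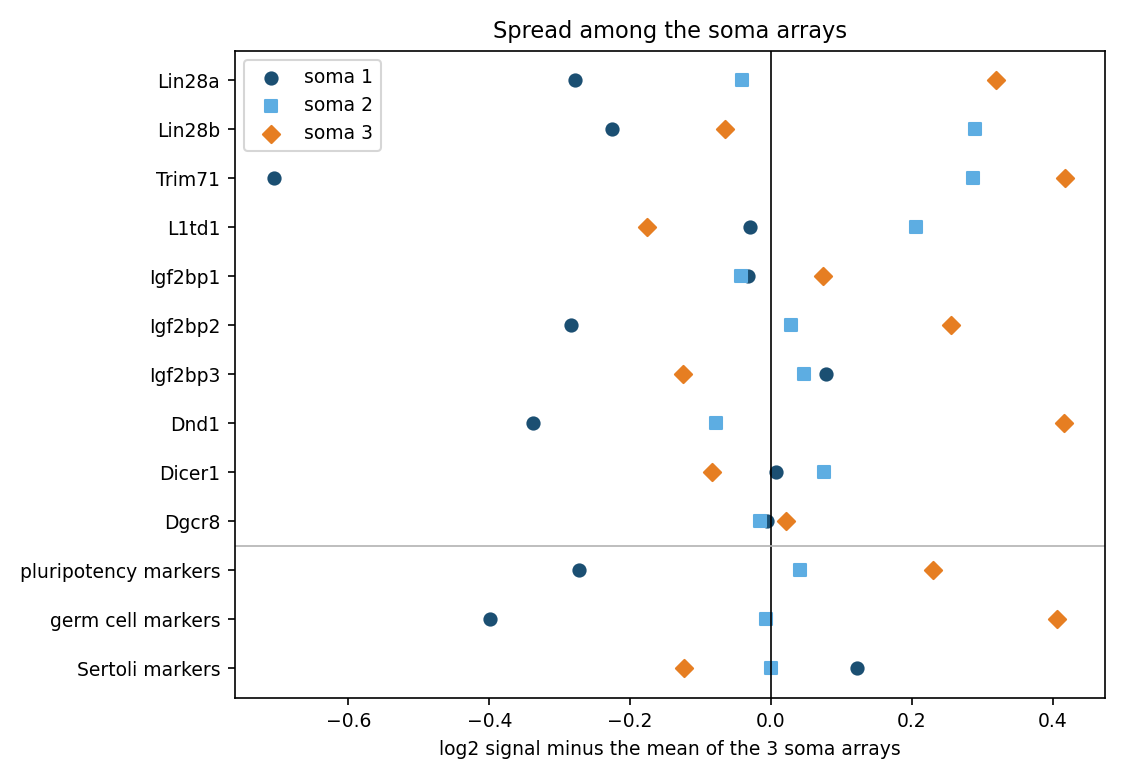
Log2 signal of the brightest probe of each member on each soma array, less the mean of the 3 soma arrays. The summed signal of the germ cell, pluripotency and Sertoli markers is shown in the same way below the line. Dnd1 runs from -0.34 on soma 1 to 0.42 on soma 3 and the germ cell markers from -0.40 to 0.41, while Sertoli markers are highest on soma 1 (0.12) and Dgcr8 stays within 0.02 of its mean.

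Dicer1 and Dgcr8 encode proteins of microRNA production and differed in opposite directions. DGCR8 binds the primary transcript and guides the nuclease DROSHA, and DICER cuts the exported hairpin to the mature length. Dgcr8 read 1.71, 1.69 and 1.8 in ESC, against 1.02, 1.01 and 1.04 in soma. Replicates of each group were nearly equal and the gene was 1.69-fold higher in ESC (0.75 ± 0.05 on the log2 scale, SE, n = 3 per group, limma adjusted p 2.02e-05).

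Dicer1 read 1.64, 1.66 and 1.7 in ESC, against 2.63, 2.75 and 2.47 in soma. It was 1.57-fold lower in ESC, with the groups well apart (-0.65 ± 0.06 on the log2 scale, SE, n = 3 per group, limma adjusted p 8.8e-05). Both directions held under the scalings tried, Dgcr8 between 0.53 and 0.95 and Dicer1 between -0.87 and -0.45. The scalings moved the median of all genes by -0.12 (quantile normalization), 0.2 (array median) and -0.22 (spike-in RNA) on the log2 scale.

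**Figure D3:**
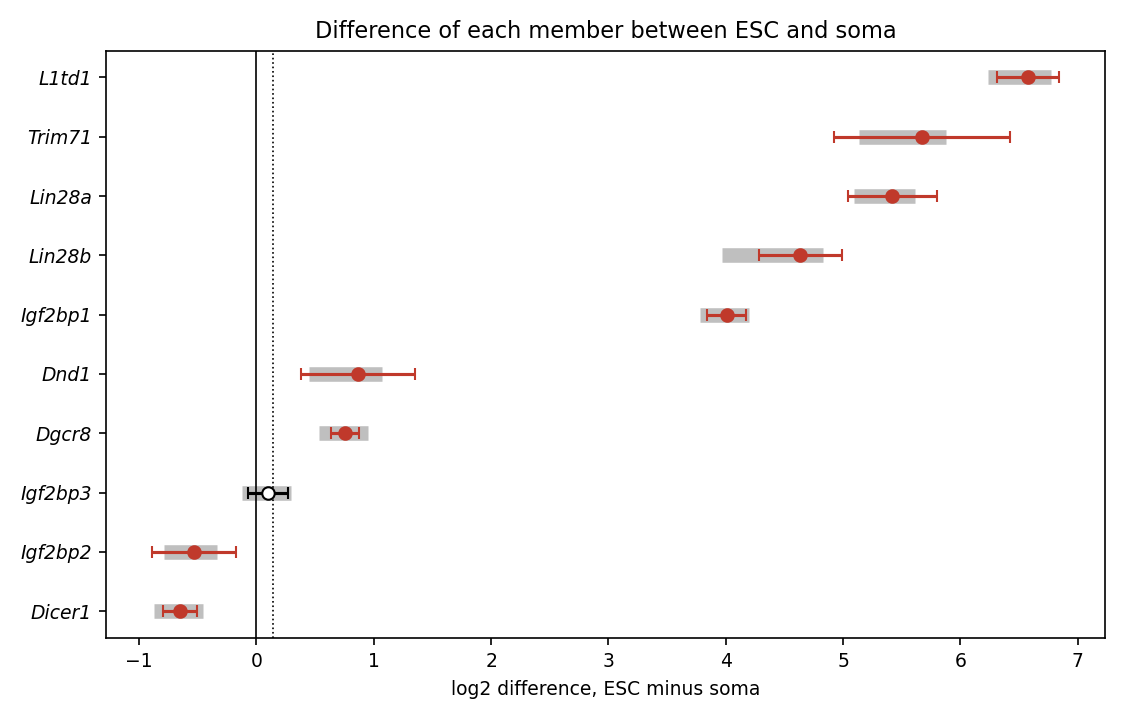
Log2 difference, ESC minus soma, of the brightest probe of each member (points) with its 95% interval from limma (bars). Grey bands give the range over 20 other settings, the dotted line is the median of all genes (0.14), and the open point is Igf2bp3, which did not pass; 5 members lie at 4.01 or above and the rest between -0.65 and 0.86.

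An entry exists for 8 members among RefSeq promoter sequences (GRCm38.p6, 250 bases before to 50 after the start), all but Igf2bp1 and Dnd1. CpG counts are given because they differed among the members: 8 to 19 in the 300 bases of Lin28b, Lin28a, L1td1 and Trim71, 25 in those of Igf2bp3, and 43, 47 and 49 in those of Dgcr8, Igf2bp2 and Dicer1. The median over all 32851 promoter entries was 7. The promoters of Lin28a (chr4:134018767-134019066, minus strand) and Dicer1 (chr12:104751903-104752202, minus strand) show the contrast, with each CG in capitals.
Lin28a: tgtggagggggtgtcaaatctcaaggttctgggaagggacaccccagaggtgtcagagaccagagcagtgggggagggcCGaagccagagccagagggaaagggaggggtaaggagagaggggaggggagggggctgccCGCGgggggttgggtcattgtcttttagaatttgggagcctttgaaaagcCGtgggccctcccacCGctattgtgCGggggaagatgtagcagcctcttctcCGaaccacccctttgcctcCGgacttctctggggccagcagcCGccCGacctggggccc
Dicer1: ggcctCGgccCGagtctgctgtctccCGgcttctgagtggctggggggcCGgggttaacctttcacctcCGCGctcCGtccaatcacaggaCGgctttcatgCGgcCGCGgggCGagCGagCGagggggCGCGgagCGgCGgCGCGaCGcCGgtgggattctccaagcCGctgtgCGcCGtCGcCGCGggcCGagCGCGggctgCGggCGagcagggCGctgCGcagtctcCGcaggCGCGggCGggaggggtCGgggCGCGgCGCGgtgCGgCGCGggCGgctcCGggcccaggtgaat
The octamer ATGCAAAT, a motif of OCT factors, was searched on both strands and lay in 1.74% of all promoter entries and in 0 of the 8 members' windows. The GC box GGGCGG lay in 35.7% of all entries and in those of Lin28a, Trim71, Igf2bp2, Dicer1 and Dgcr8. The E-box CACGTG lay in 7.15% of all entries and in those of Lin28b and Igf2bp3. The SOX motif ACAATG lay in 12.6% of all entries and, among the members, in that of Lin28a alone. TATAAA lay in 13.6% of all entries and in no member's window. Such matches are letters in a window and say nothing of binding.

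A list of LIN28 partners and of RNA tailing and decay genes, wider than the let-7 decay step itself, was mixed. Of 12 genes on that list 7 were higher in ESC, 3 were lower and 2 did not pass, with a median log2 difference of 0.34 (6 and 5 under quantile normalization, 8 and 2 under scaling to the array median). The lower 3 were Tut4, Tut7 and Dis3l2, which act on the let-7 precursors that LIN28A binds. Tut4 and Tut7, which add the uridine tail to the precursors, fell by 1.44 and 0.95 on the log2 scale, with means of 2.16 in ESC and 5.87 in soma for Tut4 and of 2.62 in ESC and 5.07 in soma for Tut7. Dis3l2, the nuclease that degrades the tailed precursor, stood at -0.29 and missed the threshold under scaling to the array median (-0.09). The largest higher values were those of Dis3, a catalytic subunit of the RNA exosome, at 1.90, Tut1, which tails U6 RNA, at 1.40, and the helicase gene Dhx9 at 0.87. Msi1, counted as higher, stood at 0.72 on its brightest probe, but another probe passed as lower at -0.61.

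Genes of microRNA processing and silencing were split as well. Of 20 genes 19 were tested, of which 8 were higher in ESC, 8 were lower and 3 did not pass (median 0.10, or -0.14 under quantile normalization and -0.12 with spike-in scaling). Genes of steps before DICER went both ways. Ddx17 and Ddx5, helicase genes of the DROSHA complex, stood lower at -0.63 and -0.25 on their brightest probes. The brightest probe of Ddx5 missed the threshold under scaling to the array median (-0.05). The other 2 of the 3 Ddx5 probes passed as higher in ESC, the highest at 0.46. Higher in ESC were Xpo5, the exporter of the hairpin, by 2.31 (mean 3.39 in ESC and 0.685 in soma), its cofactor Ran by 1.27, Srrt by 1.16, and Drosha by 1.01 (13.2 in ESC and 6.58 in soma). Tarbp2, a double-stranded RNA-binding partner of DICER, was higher by 1.20, whereas Prkra, the other such partner, was lower by 1.72 (log2 difference -1.72, mean 0.79 in ESC and 2.6 in soma). The GW182 genes Tnrc6a, Tnrc6b and Tnrc6c, whose proteins link Argonaute to the deadenylases, stood at -0.91, -0.75 and -0.71. Among Argonaute genes Ago1 stood at 0.21 (-0.01 with spike-in scaling) and Ago4 at -3.58, while Ago2 stood at 0.97 on its brightest probe and at -1.15 on another. Ago4 was dim in ESC, where only 2 of the 3 arrays were well above background. Its difference was -2.21 with normexp background correction and -2.81 on its other probe.

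Genes listed as let-7 targets went both ways. Of 28 genes tested 16 were higher in ESC, 9 were lower and 3 did not pass (median 0.45). The counts higher and lower were 14 and 10 with spike-in scaling, and 18 and 8 under scaling to the array median. Higher by at least 2-fold were 11 and lower by at least 2-fold 7, where the shares over all genes tested were 24.2% and 23.2%. Nr6a1, the gene of the orphan nuclear receptor GCNF, was at least 6.26-fold higher in ESC, where no soma array was well above background (means 0.162 in ESC and 0.00684 in soma). Its fitted log2 difference was 4.58 (limma adjusted p 1.36e-06). The bound belongs to the processed signal, and with normexp background correction the log2 difference of Nr6a1 was 1.69, below the bound. Prtg rose by 3.96, and Hmga1, which encodes a chromatin protein, by 3.75, with a mean of 152 in ESC and 11.3 in soma, where 2 of its 3 probes passed as higher and the lowest stood at 0.40. Hmga2, a classical let-7 target, stood the other way at -3.52 (mean 0.991 in ESC and 11.3 in soma), and both of its probes passed as lower. Plagl1, an imprinted zinc finger gene, fell by 4.88 (mean 2.05 in ESC and 59.6 in soma), and Acvr1c was at least 4.11-fold lower, where no ESC array was well above background, but its log2 difference under normexp was -1.22, also smaller than the bound.

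Partners and cargo of the IGF2BP proteins numbered 12 tested of 13, with 7 higher in ESC and 5 lower (median 0.40; 4 and 6 under quantile normalization, where the median was -0.08). Ybx1, which binds RNA in the same complex, rose by 1.52 and Pabpc1, the poly(A)-binding protein gene, by 1.49. Ptgs2 was at least 2.41-fold higher, where no soma array was well above background, but its log2 difference under normexp was 0.98, below that bound. Igf2, the mRNA that gave the family its name, fell by 4.69 (mean 0.0869 in ESC and 2.28 in soma), the double-stranded RNA-binding gene Stau2 by 1.95 and Btrc by 1.73. Actb, another known cargo, stood at 0.28, but at -0.15 under quantile normalization. Elavl1, counted as higher, stood at 0.59 on its brightest probe, but another probe passed as lower at -0.91.

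Genes of the m6A mark, which IGF2BP proteins are known to read, differed by less than 2-fold on their brightest probes, although another probe of Mettl3 stood at 1.10. With arrays scaled to their median Alkbh5 and Cbll1 stood at 1.14 and 1.09, and with spike-in scaling Fto stood at -1.16. Of 16 genes 11 were higher in ESC, 3 were lower and 2 did not pass (median 0.57; 12 and 1 under scaling to the array median). The demethylase gene Alkbh5 stood at 0.95, Cbll1 at 0.89 and the writer gene Mettl14 at 0.79, whereas Fto, the other demethylase gene, stood at -0.94. Ythdf3 and Virma stood at -0.30 and -0.29 and did not pass under scaling to the array median.

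CCR4-NOT subunits and repressors that recruit it, the machinery that DND1 and the microRNA complex use, had 11 genes higher in ESC, 8 lower and 2 that did not pass among 21 (median 0.16, or -0.06 with spike-in scaling, where 8 were higher and 10 lower). Cnot11, Cnot9 and Cnot1 were the largest higher, at 1.30, 0.90 and 0.81. Cnot6l, which encodes a deadenylase, fell by 1.59 and Zfp36l1, whose protein binds AU-rich elements, by 1.37. Btg1 stood at -1.25 on its brightest probe and at 2.24 on another.

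Of 9 targets and relatives of TRIM71, 3 were higher in ESC, 5 were lower and 1 did not pass (median -0.82). Cdkn1a, the p21 gene and a known target of TRIM71 repression, was 4.43 higher in ESC on the log2 scale (mean 2.82 in ESC and 0.131 in soma), and both of its probes passed as higher. Trim2 and Shcbp1 stood at 1.42 and 0.76. Rbl1, counted as lower, stood at -1.12 on its brightest probe, but another probe passed as higher at 0.83. Mbnl1, a splicing regulator whose mRNA TRIM71 is reported to repress, fell by 2.78, Trim32 by 1.43, and Hoxa5 was at least 3.79-fold lower, where no ESC array was well above background, but its log2 difference under normexp was -1.12, a smaller difference than the bound. For the 7 lists the medians were the same with members at their bounds, and the share of genes called in either direction over all genes was 84.9%.

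**Figure D4:**
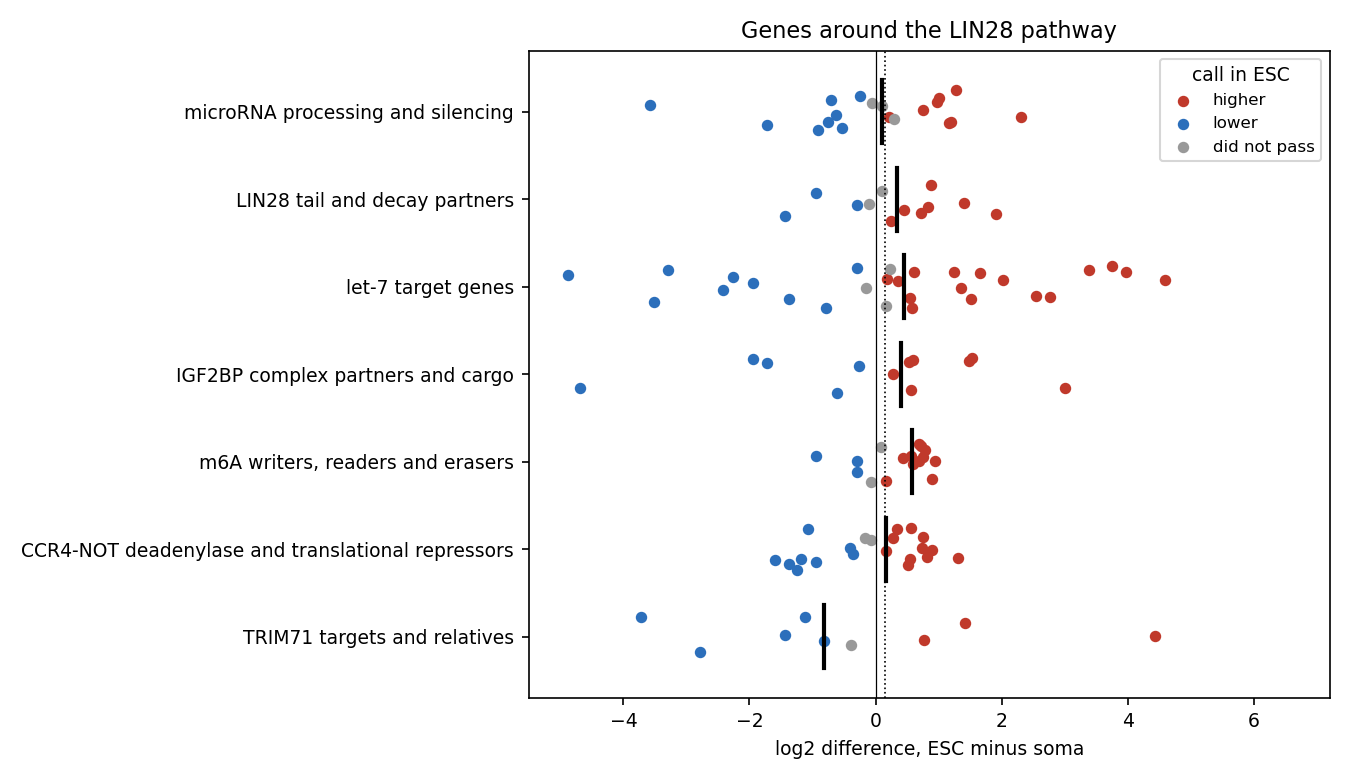
Log2 difference, ESC minus soma, of each tested gene on 7 lists around the LIN28 pathway (red higher in ESC, blue lower, grey did not pass), with the list's median as a black bar and the median of all genes dotted. The let-7 targets span -4.88 to 4.58 and the m6A genes -0.94 to 0.95; genes given as bounds in the text are drawn at their fitted difference, and vertical scatter within a row carries no value.

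The genes whose profile over the 6 arrays was most like that of Lin28a, by Euclidean distance between log2 values centred on their mean, were Abcc4 (distance 0.23), Clgn (0.24) and Gldc (0.25), among 14197 genes with a symbol. Abcc4, a transporter gene, read 4.44, 3.81 and 4.21 in ESC and 0.0764, 0.0939 and 0.139 in soma. Gldc, of the glycine cleavage system, read 12.6, 10.6 and 10.7 in ESC and 0.193, 0.263 and 0.298 in soma, and Clgn, a chaperone gene, was 0.539 to 0.619 in ESC and not well above background on any soma array. Likeness over 2 groups of 3 arrays is mostly the size of the group difference.

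Sertoli markers summed to 1.11 to 1.34 in ESC and 66 to 78.2 in soma over 10 genes, fetal Leydig markers to 3.05 to 3.49 in ESC and 78.9 to 80.2 in soma over 5, and erythroid markers to 0.161 to 0.177 in ESC and 613 to 653 in soma over 5. Interstitial and macrophage markers also summed higher on every soma array than on any ESC array. Endothelial marker sums overlapped, at 4.99 to 5.39 in ESC and 4.73 to 6.63 in soma over 6. Among these 6, 2 were higher in ESC, 3 were lower and 1 did not pass. Of the 12 pluripotency markers 11 were higher in ESC, Pou5f1 by 5.98 and Sox2 by 7.19 on the log2 scale. Nanog went against the label on its 1 probe, with 0.113, 0.137 and 0.133 in ESC and 0.343, 0.31 and 0.442 in soma (log2 difference -1.50, limma adjusted p 0.000153). Of the 11 germ cell markers tested 6 were higher in ESC and 2, Dazl and Nanos2, were lower. From 56.0% to 63.2% of gene probes per array exceeded background, and no gene spot was saturated. Slide 1 held soma 1 and 2 in a single scan. Slide 2 held soma 3 and the ESC arrays, with soma 3 scanned apart from them. No scan held both groups, and the scan cannot be told apart from the group. The number of arrays limits the precision.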

How the data were processed

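RNA of 3 ESC and 3 soma samples was measured on 1-colour Agilent arrays. The deposited intensity values came from Feature Extraction 10.7.3.1 per the file headers, background-subtracted and detrended within an array with no scaling between arrays, on a grid built on mm9. The deposited series matrix holds log2 values whose scale the authors do not state, and it served as an alternative.

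The log2 processed signal was scaled by the array's 75th percentile over gene probes. Outlier-marked spots (15 probe values) and control spots were dropped, and 24153 of 39429 gene probes were kept, each well above background on all arrays of at least 1 group. RefSeq accessions (GRCm38.p6 table) named 66.1% of probes. A gene is its brightest kept probe. The test was limma (version 3.58.1, R 4.3.3) on ESC against soma, two-sided, with Benjamini-Hochberg adjustment over 19673 genes, and the code was tested on simulated data. Values in the text for genes on the lists are log2 differences, ESC minus soma, unless given as means.

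The members and gene lists were chosen with earlier results of these data known. From each list the text names up to 3 genes in each direction with the largest differences that passed, more for microRNA processing. Actb, Elavl1, Msi1, Rbl1, the named markers and the other probes of Ago2, Ago4, Btg1, Ddx5 and Mettl3 were named after their values were seen. Replicate numbers do not pair the samples.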

Additional observations from a re-analysis of the deposited data

How the results depend on the processing

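Across 20 other settings the members' 200 log2 differences kept their direction and their side of the threshold in 196 cases. The exceptions were Igf2bp2 (-0.34, no longer passing) under scaling to the array median, and Igf2bp3, at 0.29 and passing under that scaling, at 0.22 and passing with the slide as a fixed block, and at -0.13 with spike-in scaling, where it reversed without passing. The cause was not tested. Members higher in ESC numbered 7 or 8 and members lower 2, except under scaling to the array median, which left 1 lower. Dnd1 ran from 0.45 against the slide shared with soma 3 to 1.07 without soma 3. Leaving out 1 array at a time kept 7 members higher and 2 lower. Genes called numbered 13669 (probes above background on all 6 arrays, fewer genes tested) to 17688 (no filter), and the fit of all kept probes called 20468 probes. With the replicate number as a block, 16479 genes were called, with the same member counts. The replicate numbers gave no pairing, with correlations between same-numbered arrays of -0.05, 0.07 and 0.03. The normexp alternative used the median spot signal. Differences of dim probes, such as those of Nr6a1, Ptgs2, Hoxa5 and Acvr1c, were smaller under normexp (1.69, 0.98, -1.12 and -1.22 on the log2 scale). No outlying-sample test was made, since groups of 3 are too small for it.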
